A study of Mus musculus with 6 samples.

Results

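The heat-shock and DnaJ chaperone genes of the mouse airway surface epithelium were compared across 3 cell types. The members were the 94 of 20315 named genes whose symbols belong to the Dnaj, Hspa, Hspb, Hsp90, Hsf, Bag or Cct families, or are Hspd1, Hspe1, Hsph1, Tcp1 or St13. They comprised 46 DnaJ genes (4 of class A, 13 of class B and 29 of class C), 12 Hsp70 genes and 1 Hsp110 gene. Further members were 7 small heat shock protein genes, 3 Hsp90 genes and 2 genes of the mitochondrial chaperonin. The rest were 10 genes named after the cytosolic chaperonin CCT, 7 Hsp70 cochaperone genes and 6 named after heat shock factors. Hspa4 and Hspa4l, relatives of Hsp110, count among the Hsp70 genes by their symbols. Hspb11 was left out by rule, and Tcp1 was read as a whole symbol. The RNA came from primary cells of C57BL/6 mice, sorted by flow cytometry into ciliated cells (EpCAM+, GSIβ4-, CD24+), club cells (EpCAM+, SSEA1+) and basal cells (EpCAM+, GSIβ4+), with 2 arrays of each type. The mice carried no further allele or treatment that the labels name, their age is not stated, and whether cells of several animals were pooled is not stated either. All levels are RMA log2 values, on which 1 unit is a 2-fold difference.

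Chaperones of the Hsp70 family bind unfolded stretches of other proteins and release them in a cycle driven by ATP. J-domain proteins, named after DnaJ, bring substrates to Hsp70 and start its hydrolysis of ATP, and Hsp110 and Bag proteins speed the release of ADP. Hsp90, the ring-shaped chaperonins and the small heat shock proteins act beside this core, and heat shock factors switch many of these genes on under stress. In ciliated cells the axonemal dyneins are folded in the cytoplasm by chaperones and dedicated assembly factors before they enter the cilium.

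Most ciliated and basal markers were higher in their own sort than in both others, and fewer of the club markers were. The club markers still averaged highest in club arrays, at 12.52 and 12.48. They averaged 11.47 and 11.15 in ciliated and 10.34 and 10.79 in basal arrays. Of 18 ciliated markers, 17 were higher in ciliated cells than in both other types, among them Foxj1, the exception being Mcidas. Of 16 basal markers, 13 were higher in basal cells than in both others, among them Trp63. Of 17 club markers, 7 were higher in club cells than in both others, among them Muc5b, while others, such as Scgb1a1 and Cyp2f2, were not. Scgb1a1 averaged 14.04 in ciliated and 14.15 in club cells, and Krt13 was lower in club than in basal cells by 1.74 log2 units. At an adjusted p under 0.05, 8 of the 17 were higher and 2 lower in ciliated than in basal cells. Between the arrays of a type, the Pearson correlation over genes (not independent replicates) was 0.989 for ciliated, 0.987 for club and 0.975 for basal cells. Over 1 log2 unit lay between the basal arrays in 3.02 percent of all genes, against 0.492 percent for the ciliated and 0.95 percent for the club arrays. The labels call the arrays of a type biological replicates without naming animals, so the p-values measure only the spread between these arrays, which may be technical. Where a sorted population is compared in bulk, fewer cells of a kind and less RNA per cell cannot be told apart.

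Most of the 94 chaperone genes were called in no contrast. Of the 25 that were, ciliated cells had the higher level in 16 against basal cells and in 11 against club cells. In one limma fit of the 6 arrays, a gene was called where its p, adjusted by Benjamini-Hochberg across the 20315 genes, was under 0.05. In at least 1 of the 3 contrasts 25 members were called (26.6 percent, against 24 percent of all genes), and 69 in none. Set against basal cells, ciliated cells had 19 of 94 members called, against 17.6 percent of all genes. Of these 19, 16 were higher and 3 lower in ciliated cells, where 9.29 percent of all genes were higher and 8.28 percent lower. With quantile normalization applied again, that split was 14 higher and 5 lower, beside 1776 higher and 1896 lower over all genes. Without ciliated replicate 2 the count of members fell, as did that of all genes. The median difference of the 94 was 0.12 log2 units, beside -0.02 over all genes. By role, called genes higher in ciliated than in basal cells were 1 of 4 class A, 3 of 13 class B and 5 of 29 class C DnaJ genes and 3 of 12 Hsp70 genes. To these came the Hsp110 gene, 1 of 3 Hsp90 genes, 1 of 7 cochaperone genes and 1 of 6 genes named after heat shock factors. The lower ones were 1 class C gene, 1 small heat shock protein gene and 1 cochaperone gene.

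Club cells differed from basal cells in 6 of 94 members, all 6 higher (0 lower, and 5 lower at an unadjusted p under 0.05), where 8.02 percent of all genes were called, 4.35 percent higher and 3.67 percent lower. That count fell without either club array and rose without basal replicate 1, as did the count over all genes. With only the types compared in the fit it was 3, beside 578 higher and 472 lower over all genes. The median difference of the 94 was 0.15 log2 units, beside -0.06 over all genes. Ciliated cells differed from club cells in 17 of 94 members, against 15.4 percent of all genes. Here 11 were higher and 6 lower in ciliated cells, with a background of 7.93 percent higher and 7.46 percent lower. The count fell without either ciliated array and without club replicate 1, as did the count over all genes. The median difference was 0.03 log2 units, beside 0.04 over all genes. The contrasts share arrays in pairs, so a gene called in more than 1 of them was not measured independently each time.

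**Figure D1:**
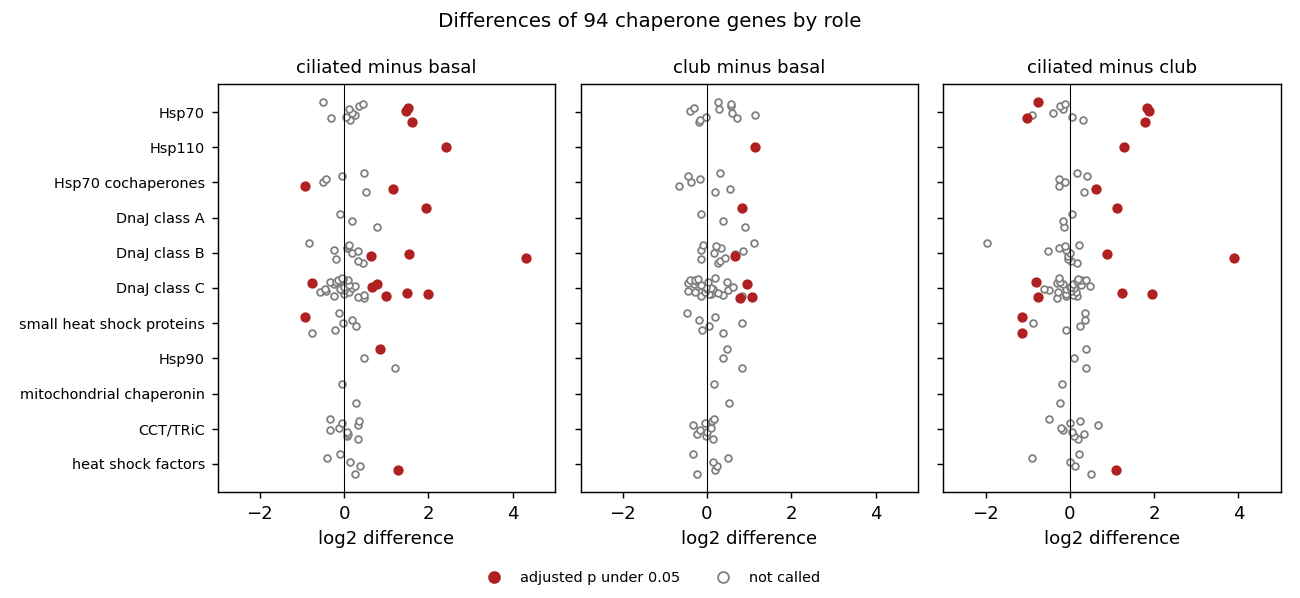
Each point is 1 of the 94 chaperone genes, placed by its log2 difference (horizontal axis) for ciliated against basal, club against basal and ciliated against club cells, and grouped by role down the page; filled points were called at an adjusted p under 0.05. The J-domain, Hsp70 and Hsp110 groups hold the called genes furthest to the right, up to 4.31 log2 units for Dnajb13, and the CCT and mitochondrial chaperonin groups hold none.

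Placing genes by a stricter rule, that both contrasts of a type pass and the smaller difference is at least 1 log2 unit, put 9 of 94 members (9.57 percent) higher in ciliated cells than in both other types, against 4.76 percent of all genes. These were Dnajb13, Dnajc15, Dnaja4, Dnajc16, Hsph1, Hspa4l, Hspa2, Hspa12a and Hsf2. In club and basal cells 0 members met the rule, where 1.47 and 1.81 percent of all genes did. Without basal replicate 1 the club count was 1 (Dnajb9), and without basal replicate 2 the basal count was 1 (Bag3).

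Among the J-domain genes the largest difference was that of Dnajb13, which encodes a class B protein of the radial spokes of motile cilia and sperm tails. Its level was 11.42 and 11.01 in ciliated cells, 7.35 and 7.30 in club cells, and 6.76 and 7.04 in basal cells. Both ciliated arrays lay far above the other 4, by 4.31 ± 0.20 log2 units over basal cells (SE, 19.9-fold, adjusted p = 9.7e-06) and 3.89 ± 0.20 over club cells (14.8-fold, adjusted p = 1.9e-05). The club and basal arrays of Dnajb13 differed by 0.42 ± 0.20, which did not pass (adjusted p = 0.26).

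Dnajc15, a J protein of the inner mitochondrial membrane that acts on respiratory complex I, was at 10.46 and 10.15 in ciliated cells, 8.46 and 8.25 in club cells, and 7.99 and 8.62 in basal cells. It was higher than in basal cells (adjusted p = 0.0011) and 3.87-fold higher than in club cells (adjusted p = 0.0015), and club and basal arrays overlapped. Dnaja4, a class A protein of the cytosol, followed a graded order, with 11.10 and 11.13 in ciliated cells, 10.17 and 9.82 in club cells, and 9.14 and 9.19 in basal cells. No 2 types overlapped for Dnaja4, and all 3 contrasts passed, at 1.95 ± 0.17 log2 units for ciliated minus basal, 1.12 ± 0.17 for ciliated minus club and 0.83 ± 0.17 for club minus basal (adjusted p = 0.00021, 0.0043 and 0.028).

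Dnajc16, a J protein of the endoplasmic reticulum membrane, was at 10.14 and 9.90 in ciliated cells, 8.53 and 9.02 in club cells, and 8.38 and 8.65 in basal cells. Dnajb2, known from neurons as a J protein that binds ubiquitin chains, was at 9.43 and 9.39 in ciliated cells, 8.29 and 8.77 in club cells, and 7.68 and 8.06 in basal cells. Both genes were clear of the other types in ciliated cells, Dnajc16 2.84-fold over basal and 2.36-fold over club cells (adjusted p = 0.0026 and 0.0074), and Dnajb2 2.91-fold and 1.84-fold (adjusted p = 0.0023 and 0.032). Bag2, a nucleotide exchange cochaperone of Hsp70, was at 8.25 and 8.29 in ciliated cells, 7.67 and 7.64 in club cells, and 6.94 and 7.27 in basal cells. It was 2.24-fold higher than in basal cells (adjusted p = 0.0028), and its difference from club cells, 0.62 ± 0.17, was at the threshold (adjusted p = 0.0499).

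The calls of Dnajb13, Dnajc15 and Dnaja4 in both ciliated contrasts, and those of Dnajc16, Dnajb2 and Bag2 over basal cells, held under all 13 alternatives run. The calls against club cells ended for Dnajc16 without ciliated replicate 1, for Dnajb2 without either ciliated array or without club replicate 1, and for Bag2 without any 1 of the ciliated or club arrays. The call of Dnaja4 in club minus basal ended under 8 alternatives, among them leaving out either ciliated array, club replicate 1 or basal replicate 2. In club minus basal no member's call held under all 13 alternatives. Leaving out either array of the type not compared gave the same fit as using only the types compared. Those settings are therefore not separate checks, here and below.

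**Figure D2:**
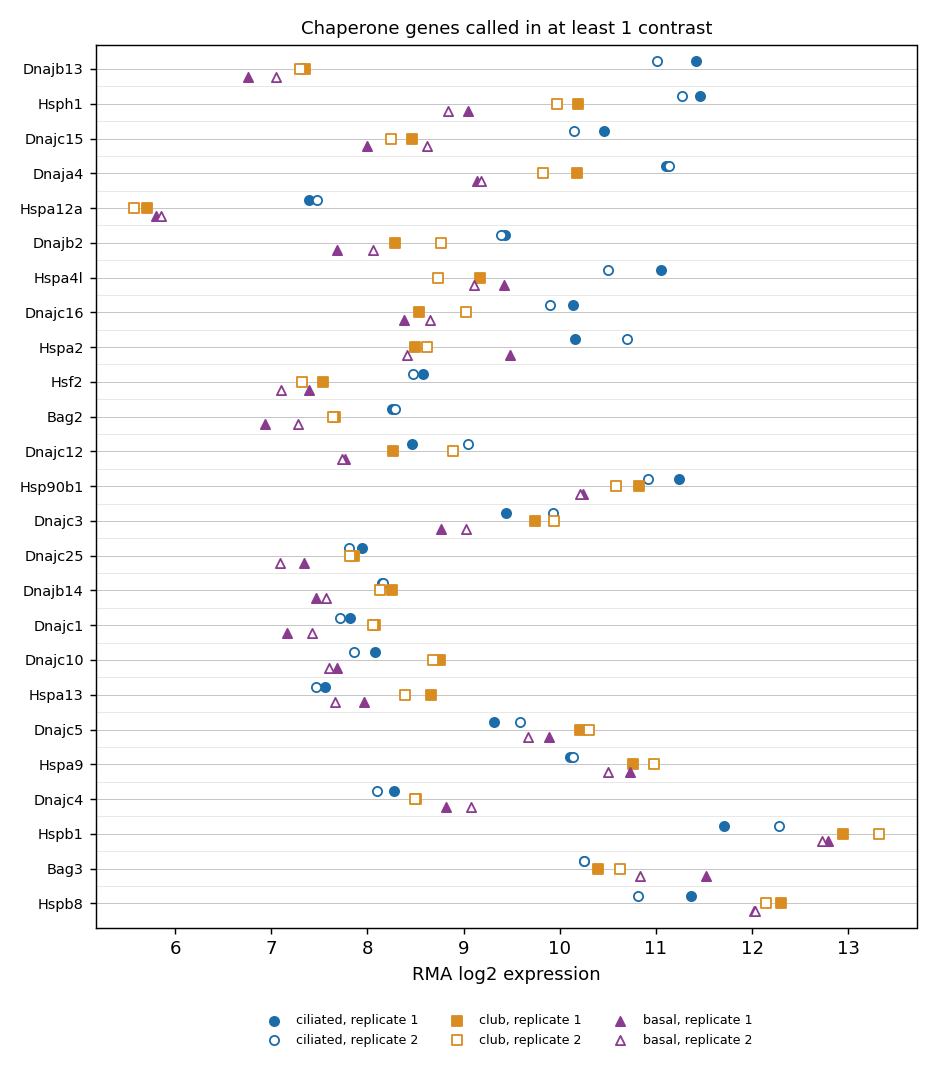
RMA log2 expression (horizontal axis) of the 25 members called in at least 1 contrast, one row per gene, ordered from the highest to the lowest difference of ciliated minus basal; circles are ciliated, squares club and triangles basal arrays, filled for replicate 1 and open for replicate 2. In the upper rows the circles stand to the right of all other arrays, and in the lowest rows, Hspb8, Bag3 and Hspb1, they stand to the left.

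The Hsp110 branch, which exchanges nucleotides on Hsp70, was higher in ciliated cells in 2 of its genes. Hsph1 stood at 11.46 and 11.27 in ciliated cells, 10.19 and 9.97 in club cells, and 9.05 and 8.84 in basal cells. The 3 types did not overlap, with 5.35-fold more in ciliated than in basal cells, 2.44-fold more in ciliated than in club cells and 2.20-fold more in club than in basal cells (adjusted p = 7.2e-05, 0.0022 and 0.0081). Hspa4l, a relative of Hsph1 known for its high level in mouse testis, was at 11.05 and 10.50 in ciliated cells, 9.17 and 8.73 in club cells, and 9.42 and 9.11 in basal cells. It was 2.85-fold higher in ciliated than in basal cells and 3.55-fold higher than in club cells (adjusted p = 0.005 and 0.0024), while club and basal arrays overlapped. Hspa4, the third gene of this branch, averaged 9.91 ± 0.18 in ciliated, 10.07 ± 0.06 in club and 9.79 ± 0.02 in basal arrays (SD over n = 2 per type) and passed in no contrast.

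Of the Hsp70 genes, Hspa2, needed for meiosis in mouse spermatocytes, was at 10.16 and 10.70 in ciliated cells, 8.49 and 8.62 in club cells, and 9.49 and 8.41 in basal cells. The ciliated arrays were the highest, by 1.48 ± 0.35 log2 units over basal and 1.87 ± 0.35 over club cells (adjusted p = 0.024 and 0.01), and the basal arrays were 1.07 apart. Hspa12a, a distant relative of Hsp70, was at 7.39 and 7.47 in ciliated cells, 5.70 and 5.57 in club cells, and 5.80 and 5.85 in basal cells. Its ciliated arrays were apart from the other 4, 3.04-fold above basal and 3.47-fold above club cells (adjusted p = 0.0003 and 0.00022).

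Of the heat shock factor genes, Hsf2 alone was called. It was at 8.58 and 8.48 in ciliated cells, 7.54 and 7.32 in club cells, and 7.39 and 7.10 in basal cells, 2.43-fold above basal and 2.14-fold above club cells (adjusted p = 0.002 and 0.0051). Hsf1, the main factor of the heat shock response, was at 9.55 and 10.19 in ciliated cells, 9.08 and 9.65 in club cells, and 9.45 and 9.77 in basal cells, so that all 3 types overlapped. Its differences of 0.26 ± 0.28, -0.24 ± 0.28 and 0.50 ± 0.28 log2 units (ciliated over basal, club over basal, ciliated over club) did not pass. Of the other 4, Hsf4 came nearest, lower in ciliated than in club cells by 0.91 ± 0.27 log2 units without passing (adjusted p = 0.069), though it was called with the arrays centred on the median (-0.99) and without club replicate 2 (-1.33), and Hsf2bp, which encodes a binding partner and no factor, was at 5.60 to 6.14. The calls of Hsph1 and Hspa4l in both ciliated contrasts, of Hspa12a in both and of Hsf2 over basal cells held under all 13 alternatives. That of Hsf2 over club cells ended without ciliated replicate 1, that of Hsph1 in club minus basal without club replicate 1, and those of Hspa2 without ciliated replicate 2 (both contrasts), ciliated replicate 1 (over basal cells) or club replicate 1 (over club cells).

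Heat shock factors bind repeats of the short unit GAA in alternating orientation. RefSeq promoter windows (GRCm38.p6, 250 bases before to 50 after a gene's start) were found for 74 of the 94 members, and both strands were searched. The motif of 3 units, which are GAA, TTC and GAA each parted by any 2 bases, was in the windows of 4 of the 74 members (5.41 percent), against 0.662 percent of 27025 genes. These 4 were Hsph1, Hspd1, Hspe1 and Dnajb6. The windows of Hspd1 and Hspe1 overlap on chromosome 1, so the same stretch was counted for both genes, as also with the shorter motif below. The shorter motif of 2 units, GAANNTTC, which lies within the longer one, was in 16 of the 74 (21.6 percent), against 9.04 percent of all genes, among them Hspa1a, Hspb1, Hspb8, Bag3, Dnaja1 and Dnaja4. A motif absent from a window may lie outside it. Of the genes with the longer motif, only Hsph1 was called in any contrast. The windows below show the motif of 3 units, in capitals, in a member that differed in all 3 contrasts, Hsph1 (chr5:149636287-149636586, minus strand), and in one that differed in none, Hspe1 (chr1:55087898-55088197, plus strand), where 2 copies overlap. In the printed window of Hsph1 the motif begins 36 bases after the annotated start, and in Hspe1 the copies begin 89 and 84 bases before it.
Hsph1: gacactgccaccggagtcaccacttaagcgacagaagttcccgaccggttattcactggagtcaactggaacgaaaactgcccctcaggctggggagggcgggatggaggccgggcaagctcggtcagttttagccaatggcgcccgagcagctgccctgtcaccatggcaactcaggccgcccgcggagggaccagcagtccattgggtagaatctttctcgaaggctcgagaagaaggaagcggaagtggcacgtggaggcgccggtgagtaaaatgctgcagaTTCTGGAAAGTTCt
Hspe1: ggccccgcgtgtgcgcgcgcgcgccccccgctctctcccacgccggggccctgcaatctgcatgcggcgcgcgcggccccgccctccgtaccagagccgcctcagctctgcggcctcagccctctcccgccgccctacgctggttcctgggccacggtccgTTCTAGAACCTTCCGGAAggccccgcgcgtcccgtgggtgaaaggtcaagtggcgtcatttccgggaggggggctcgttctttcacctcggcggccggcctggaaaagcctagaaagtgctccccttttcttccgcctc

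The same windows were searched, on both strands, for motifs of factor families that act in ciliated cells. The half-site of RFX factors, GTTGCCATG, was in 1 of the 74 members, Hsph1 (1.35 percent, against 0.877 percent of all genes). The forkhead motif GTAAACA was in 3 (4.05 percent, against 4.05 percent of all genes), namely Dnajb12, Dnajc10 and Dnajc6, none of them called higher in ciliated cells.

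The members of the endoplasmic reticulum described next were picked by their known location, with their values known, and did not share 1 pattern. Dnajc16, of the same compartment, was among the genes higher in ciliated cells than in both other types. Dnajc3, a J protein of the lumen, was at 9.44 and 9.93 in ciliated cells, 9.74 and 9.94 in club cells, and 8.76 and 9.02 in basal cells. Both basal arrays were the lowest, and the difference from basal cells was 0.79 ± 0.21 log2 units for ciliated and 0.95 ± 0.21 for club cells (adjusted p = 0.041 and 0.038). Dnajb14, anchored in the membrane, was at 8.15 and 8.16 in ciliated cells, 8.25 and 8.13 in club cells, and 7.46 and 7.57 in basal cells, with both other types called above basal cells (1.56-fold for ciliated and 1.59-fold for club cells).

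Dnajc10, a J protein that reduces disulfide bonds of proteins bound for degradation, was at 8.08 and 7.86 in ciliated cells, 8.76 and 8.69 in club cells, and 7.69 and 7.60 in basal cells. The club arrays were the highest, 2.11-fold above basal cells (adjusted p = 0.0072), and the level in ciliated cells was lower than in club cells by 0.75 ± 0.16 log2 units (adjusted p = 0.018). Dnajc1, of the membrane, was higher in club than in basal cells by 0.78 ± 0.16 (adjusted p = 0.029). Hspa13, an Hsp70 relative of the same compartment, was at 7.56 and 7.47 in ciliated cells, against 8.66 and 8.39 in club cells (2.02-fold lower in ciliated cells, adjusted p = 0.0085), with basal cells between at 7.96 and 7.66.

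Hsp90b1, the Hsp90 of the endoplasmic reticulum, was at 11.25 and 10.92 in ciliated cells, 10.83 and 10.59 in club cells, and 10.24 and 10.21 in basal cells, called only in ciliated minus basal (0.86 ± 0.18, adjusted p = 0.015). Hspa5, the Hsp70 of the lumen, was at 12.26 and 12.48 in ciliated cells, 12.49 and 12.71 in club cells, and 12.36 and 11.70 in basal cells, and passed in no contrast. Dnajb9, a J protein that assists degradation and is induced by unfolded proteins, spread widely, with 10.62 and 9.58 in ciliated cells, 12.24 and 11.86 in club cells, and 12.15 and 9.72 in basal cells, and passed in no contrast either. In ciliated minus club its difference, -1.96, was called with only the types compared in the fit, which equals leaving out either basal array. Of the luminal and membrane J proteins, Dnajb11 was at 8.18 to 8.85 in the 6 arrays and was not called. J proteins left out of this account include Dnajb12 and Dnajc18. They were lower in ciliated than in basal cells by 0.20 ± 0.18 and 0.57 ± 0.18 log2 units, without passing.

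No call of Dnajc3, Dnajb14, Dnajc1, Dnajc10, Hspa13 or Hsp90b1 held under all 13 alternatives. That of Dnajc10 over basal cells ended without club replicate 1 alone. That of Hsp90b1 ended without ciliated replicate 1 and with quantile normalization applied again. Those of Dnajc3 and Dnajb14 over basal cells ended, among other settings, without basal replicate 1, for ciliated and for club cells alike. That of Dnajc1 in club minus basal ended without either club array or basal replicate 1. It also ended with only the types compared in the fit, which equals leaving out either ciliated array. Against club cells, the calls of Dnajc10 and Hspa13 in ciliated cells ended without ciliated replicate 1, ciliated replicate 2 or club replicate 1.

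The element through which unfolded proteins in the endoplasmic reticulum activate genes, CCAAT followed after any 9 bases by CCACG, was searched on both strands and was in 3 of the 74 members with a window (4.05 percent), against 0.137 percent of all genes. These were Hspa5, Hsp90b1 and Dnajc3, shown here with the element in capitals, because the level of 2 of them, Hsp90b1 and Dnajc3, was called higher in ciliated than in basal cells. The windows are chr2:34771840-34772139 on the plus strand for Hspa5, chr10:86705395-86705694 on the minus strand for Hsp90b1, which holds 2 copies, and chr14:118937682-118937981 on the plus strand for Dnajc3. The element begins 65 bases before the start in Hspa5, 212 and 107 before it in Hsp90b1, and 105 before it in Dnajc3.
Hspa5: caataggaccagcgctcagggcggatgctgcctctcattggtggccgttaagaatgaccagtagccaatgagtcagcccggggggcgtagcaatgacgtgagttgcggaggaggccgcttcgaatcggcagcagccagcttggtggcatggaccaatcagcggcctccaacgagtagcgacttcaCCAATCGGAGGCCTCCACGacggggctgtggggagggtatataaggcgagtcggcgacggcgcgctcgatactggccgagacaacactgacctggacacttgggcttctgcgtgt
Hsp90b1: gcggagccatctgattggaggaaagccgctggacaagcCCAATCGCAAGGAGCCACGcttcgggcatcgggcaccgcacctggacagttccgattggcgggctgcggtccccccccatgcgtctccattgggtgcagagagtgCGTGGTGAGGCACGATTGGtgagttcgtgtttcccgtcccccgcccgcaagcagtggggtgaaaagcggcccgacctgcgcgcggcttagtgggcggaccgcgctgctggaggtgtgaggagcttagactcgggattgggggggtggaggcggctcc
Dnajc3: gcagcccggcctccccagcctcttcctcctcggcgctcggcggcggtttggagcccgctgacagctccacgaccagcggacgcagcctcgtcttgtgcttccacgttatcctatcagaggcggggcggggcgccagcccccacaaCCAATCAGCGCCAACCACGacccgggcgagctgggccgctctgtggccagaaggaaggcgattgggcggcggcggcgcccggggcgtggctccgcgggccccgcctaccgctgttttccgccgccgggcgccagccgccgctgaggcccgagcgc

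A smaller set of members was lower in ciliated cells. Hspb8, a small heat shock protein that works with Bag3 to pass aggregated proteins to autophagy, was at 11.37 and 10.81 in ciliated cells, 12.30 and 12.15 in club cells, and 12.02 and 12.03 in basal cells. It was 1.91-fold lower in ciliated than in basal cells and 2.20-fold lower than in club cells (adjusted p = 0.02 and 0.0099). Its partner Bag3 was at 10.25 in both ciliated arrays, 10.40 and 10.63 in club cells, and 11.52 and 10.84 in basal cells. Bag3 was lower in ciliated than in basal cells by 0.93 ± 0.24 log2 units (adjusted p = 0.034), with the basal arrays 0.68 apart.

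Hspb1, a small heat shock protein induced by stress, was at 11.71 and 12.28 in ciliated cells, 12.95 and 13.32 in club cells, and 12.79 and 12.73 in basal cells. It was 2.20-fold lower in ciliated than in club cells (adjusted p = 0.015). Against basal cells its difference was -0.76 ± 0.23 log2 units (adjusted p = 0.063 as deposited). It was called, at -1.16 and -1.05, with quantile normalization applied again and with cyclic loess. The other 5 small heat shock protein genes, Hspb2, Hspb3, Hspb6, Hspb7 and Hspb9, were not called in any contrast, Hspb6 being 0.86 ± 0.29 lower in ciliated than in club cells without passing (adjusted p = 0.1).

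Further members lower in ciliated cells were called in 1 contrast each. Hspa9, the Hsp70 of mitochondria, was at 10.10 and 10.14 in ciliated cells, against 10.76 and 10.99 in club cells (1.69-fold lower in ciliated cells, adjusted p = 0.021), and basal cells were at 10.73 and 10.50. Dnajc5, the cysteine string protein of secretory vesicles, was at 9.32 and 9.59 in ciliated cells, against 10.21 and 10.30 in club cells (1.74-fold lower in ciliated cells, adjusted p = 0.019). Dnajc4 was at 8.28 and 8.10 in ciliated cells, against 8.81 and 9.08 in basal cells (1.69-fold lower in ciliated cells, adjusted p = 0.019). None of the lower calls held under all 13 alternatives. Those of Hspa9 and Dnajc5 ended without any 1 of the ciliated or club arrays. That of Dnajc4 ended without either ciliated array or basal replicate 2, and that of Bag3 without either ciliated array or basal replicate 1. The call of Bag3 also ended with only the types compared in the fit, which equals leaving out either club array. Those of Hspb8 ended without ciliated replicate 2 (both contrasts) or club replicate 1 (over club cells), and that of Hspb1 without ciliated replicate 1 or club replicate 2.

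The stress-inducible members Hspa1a, Hsp90aa1 and Dnajb1 had basal arrays that lay further apart than those of either other type, by 1.44, 1.12 and 0.50 log2 units. Hspb1, Hspb8 and Hsph1 did not, with basal arrays at most 0.21 apart. Hspa1a, the classical inducible Hsp70, was at 13.33 and 12.58 in ciliated cells, 13.98 and 13.71 in club cells, and 13.42 and 11.98 in basal cells. No contrast passed, with differences of 0.26 ± 0.46 log2 units for ciliated minus basal and 1.15 ± 0.46 for club minus basal. Its near-identical copy Hspa1b was not analysed here, and probes may not tell the copies apart. Hsp90aa1, the inducible cytosolic Hsp90, was at 13.38 and 13.22 in ciliated cells, 13.12 and 12.70 in club cells, and 12.64 and 11.52 in basal cells. Both basal arrays were the lowest, and the difference of 1.22 ± 0.35 between ciliated and basal cells missed the threshold (adjusted p = 0.051). It passed, at the same difference, with dim genes filtered out and with a mean-variance trend in the prior.

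Dnaja1, a class A partner of Hsp70, was at 11.48 and 10.95 in ciliated cells, 11.51 and 11.20 in club cells, and 11.26 and 9.62 in basal cells. Dnajb1, the main J protein of the heat shock response, was at 12.49 and 12.29 in ciliated cells, 12.23 and 12.18 in club cells, and 12.20 and 11.70 in basal cells. In these genes basal replicate 2 was the lowest of the 6 arrays and basal replicate 1 lay at or near the other types. Basal replicate 1 exceeded basal replicate 2 by more than 1 log2 unit in 5 members, Dnajb9 (2.43), Dnaja1 (1.64), Hspa1a (1.44), Hsp90aa1 (1.12) and Hspa2 (1.07), and 0 members differed so in the other direction. In either direction, 5.32 percent of members and 3.02 percent of all genes had basal arrays that far apart. The direction was not counted over all genes. The ciliated arrays were that far apart in 1 member (Dnajb9) and the club arrays in 0. Basal replicate 2 gave the lowest of the 6 values in 23 members (24.5 percent), against 15.6 percent of all genes.

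Several calls were gained when a basal array was left out. Without basal replicate 1, more of all genes were called too in both contrasts with basal cells, so such gains were not particular to the members. Without basal replicate 1, Dnaja1, Hsp90aa1, Hspa8 and Dnajb1 were called higher in ciliated than in basal cells, by 1.59, 1.78, 0.72 and 0.69 log2 units. In the same fit Hspa1a, Dnajb9, Dnaja1, Hsp90aa1, Dnajb4, Hspa5 and Hspa8 were called higher in club than in basal cells, by 1.87, 2.33, 1.73, 1.39, 1.26, 0.90 and 0.84. Other members gained calls in that fit as well. Hspa13 and Dnajc25 were higher in club than in basal cells, by 0.87 and 0.74. Against basal cells, the differences of Dnajc13 and Dnajc18 in ciliated cells were 0.80 and -0.75. Without basal replicate 2, Dnajb9 was called lower in ciliated than in basal cells, by 2.06. In that fit the difference of Dnajc21 in ciliated minus basal was -0.77 and that of Bag3 in club minus basal -1.01, both called. Immediate early genes, which cell isolation can induce, also differed between the basal arrays, in both directions. Of 22 measured, 6 were more than 1 log2 unit higher in basal replicate 1 than in basal replicate 2, among them Egr3 and Myc. None was that much lower, though some leaned that way, such as Ier2 (-0.69) and Socs3 (-0.65). This direction was not counted over all genes. Between types, 1 of the 22 was called higher (Klf2) and 3 lower in ciliated than in basal cells (18.2 percent, against 17.6 percent of all genes). In club minus basal 1 was higher (Btg2) and 1 lower (Socs3), 9.09 percent against 8.02 percent of all genes. Their part in the chaperone values was not tested.

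**Figure D3:**
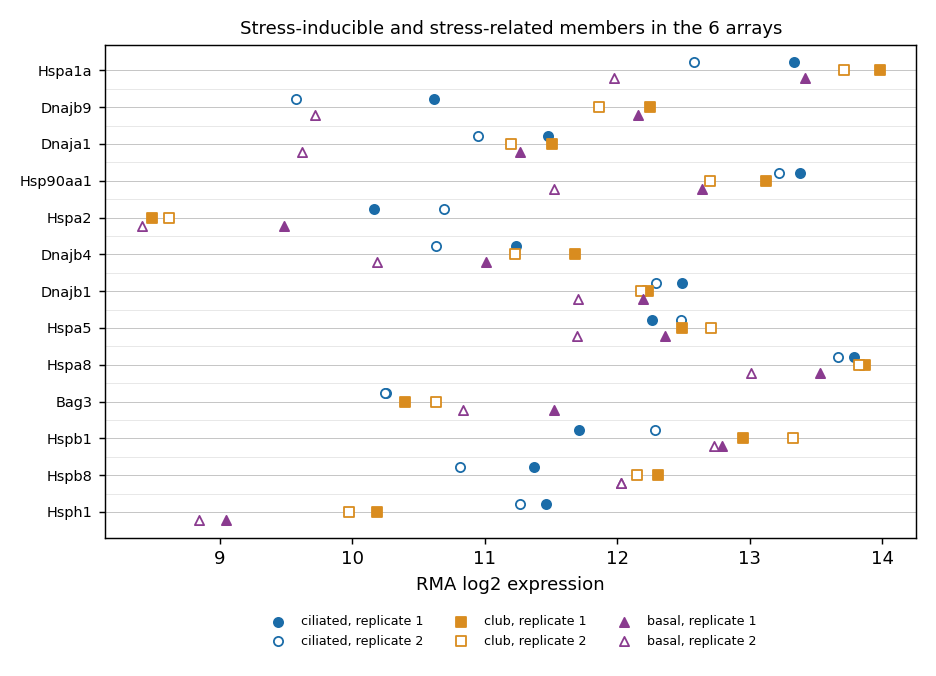
RMA log2 expression (horizontal axis) of 13 stress-inducible or stress-related members, one row per gene; circles are ciliated, squares club and triangles basal arrays, filled for replicate 1 and open for replicate 2. In Hspa1a, Dnajb9, Dnaja1 and Hsp90aa1 the 2 triangles are 1.12 to 2.43 log2 units apart, and in Hsph1 the 3 types do not overlap.

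Of the 10 genes named after CCT, the ring that folds actin and tubulin, 0 passed in limma in any contrast. Of all genes, 17.6 percent passed in ciliated minus basal, 15.4 percent in ciliated minus club and 8.02 percent in club minus basal. With 10 genes, those shares leave few calls to be seen in any list of this size. At an unadjusted p under 0.05 there were 1 in ciliated minus basal (Cct8l1), 2 in ciliated minus club (Cct7 and Tcp1) and 0 in club minus basal, and no other tool was run. Their differences ran from -0.33 to 0.35 log2 units in ciliated minus basal, -0.49 to 0.68 in ciliated minus club and -0.34 to 0.16 in club minus basal. Tcp1, for example, was at 9.74 and 9.57 in ciliated cells, 10.10 and 10.18 in club cells, and 10.11 and 9.87 in basal cells, and Cct2 at 11.47 and 11.72 in ciliated cells, 11.33 and 11.47 in club cells, and 11.29 and 11.23 in basal cells. Cct7 was called in ciliated minus club without ciliated replicate 2 (1.02) and under none of the other alternatives run. Hspd1 and Hspe1, the mitochondrial ring and its lid, which lie head to head in the genome, had differences between -0.23 and 0.52 and passed in no contrast.

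Hspa8, the constitutive cytosolic Hsp70, was at 13.78 and 13.67 in ciliated cells, 13.87 and 13.82 in club cells, and 13.53 and 13.01 in basal cells, and was called over basal cells for both other types only without basal replicate 1. Hsp90ab1, the constitutive Hsp90, was at 13.37 and 13.23 in ciliated cells, 13.19 and 13.20 in club cells, and 12.92 and 12.72 in basal cells, with 0.48 ± 0.16 between ciliated and basal cells (adjusted p = 0.083). The cochaperone genes Bag1, Bag4, Bag5, Bag6 and St13 were not called. A further pair of DnaJ genes was called only in ciliated minus basal, Dnajc12 (8.47 and 9.05 in ciliated cells, against 7.77 and 7.74 in basal cells) and Dnajc25 (7.94 and 7.80, against 7.35 and 7.10). Their club arrays (8.27 and 8.89 for Dnajc12, 7.86 and 7.81 for Dnajc25) overlapped the ciliated ones. Both genes lay above basal cells in club cells, by 0.82 ± 0.27 and 0.62 ± 0.16, without passing (adjusted p = 0.12 and 0.067). With the arrays centred on the median, Dnajc25 was called there (0.70). The call of Dnajc12 ended without ciliated replicate 2 or either basal array, and that of Dnajc25 without either ciliated array or basal replicate 2. The call of Dnajc25 also ended with only the types compared in the fit, which equals leaving out either club array. For 9 members, among them Hsf3, Dnajb7 and Cct6b, the mean over the arrays was under 5.67, the lower quartile of all gene means, where a difference is hard to see. The values of Dnajc13 came from more than 1 probe set, and signal of Dnajc19 and its pseudogene Dnajc19-ps may share probes.

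Related genes outside the 94 were read from lists chosen for their role. Over all genes, 17.6 percent were called in ciliated minus basal, 8.02 percent in club minus basal and 15.4 percent in ciliated minus club. Of 16 measured dynein assembly factors, which work with Hsp70 and Hsp90, 14 stood higher in ciliated than in basal cells and 14 stood higher than in club cells, with medians of 2.93 and 2.80 log2 units. The largest were Lrrc6 (11.12 ± 0.37 in ciliated, 6.06 ± 0.29 in club and 4.94 ± 0.12 in basal arrays, SD, with n = 2 per type), Zmynd10, Dnaaf3 and Ttc12. In club minus basal 1 passed, Lrrc6, higher in club cells by 1.12 ± 0.23. Ciliated markers leaned the same way there, with a median of 0.48 log2 units over the 18 and a lowest value of -0.84 (Tppp3). Of these markers 1 was called higher in club cells (Rsph4a, 0.93 ± 0.20, adjusted p = 0.033) and 0 lower. At an unadjusted p under 0.05, 7 were higher and 0 lower. Whether ciliated cells within the club sort contributed to the club levels of Lrrc6, Dnaja4 or Hsph1 was not tested. Ruvbl2, an AAA ATPase that joins Hsp90 in building large complexes, was higher in ciliated than in basal cells by 1.49 ± 0.29 (adjusted p = 0.011).

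A list of 30 other genes held cochaperones beside crystallins and Hspb11. In it 6 were higher and 0 lower in ciliated than in basal cells (20 percent called, against 17.6 percent of all genes). In club minus basal 3 were higher and 0 lower (10 percent, against 8.02 percent). In ciliated minus club 7 were higher and 1 lower (26.7 percent, against 15.4 percent). Cryaa, the lens crystallin of the small heat shock family, was at 8.72 and 8.82 in ciliated cells, 6.53 and 6.34 in club cells, and 6.73 and 6.98 in basal cells. Hspb11, whose product is a subunit of intraflagellar transport, was at 8.26 and 8.96 in ciliated cells, 6.41 and 6.69 in club cells, and 6.43 and 6.70 in basal cells. Nudc, an Hsp90 cochaperone that associates with cytoplasmic dynein, was 2.68-fold higher in ciliated than in basal cells, and Ahsa1, an activator of Hsp90, 2.25-fold (adjusted p = 0.0033 and 0.015). In club cells Cryab, Grpel2 and Nudcd1 were higher than in basal cells by 1.26, 1.14 and 1.03 log2 units, and Nudcd1 was lower in ciliated than in club cells by 1.55.

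Prefoldin hands actin and tubulin to CCT. A list of 11 genes that holds its subunits beside prefoldin-like and phosducin-like genes had 1 gene called, the prefoldin-like Uri1, higher in ciliated than in basal cells (0.78 ± 0.21, adjusted p = 0.043). Of 19 other genes of stress in the endoplasmic reticulum, 1 was higher and 2 lower in ciliated than in basal cells, 1 higher and 1 lower in club than in basal cells, and 1 higher and 1 lower in ciliated than in club cells. Serpinh1, the collagen chaperone, was lower in ciliated and in club cells than in basal cells by 1.32 ± 0.20 and 1.28 ± 0.20. Ern1, a sensor of unfolded proteins, was lower in ciliated than in club cells by 1.27 ± 0.21 (adjusted p = 0.006).

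**Figure D4:**
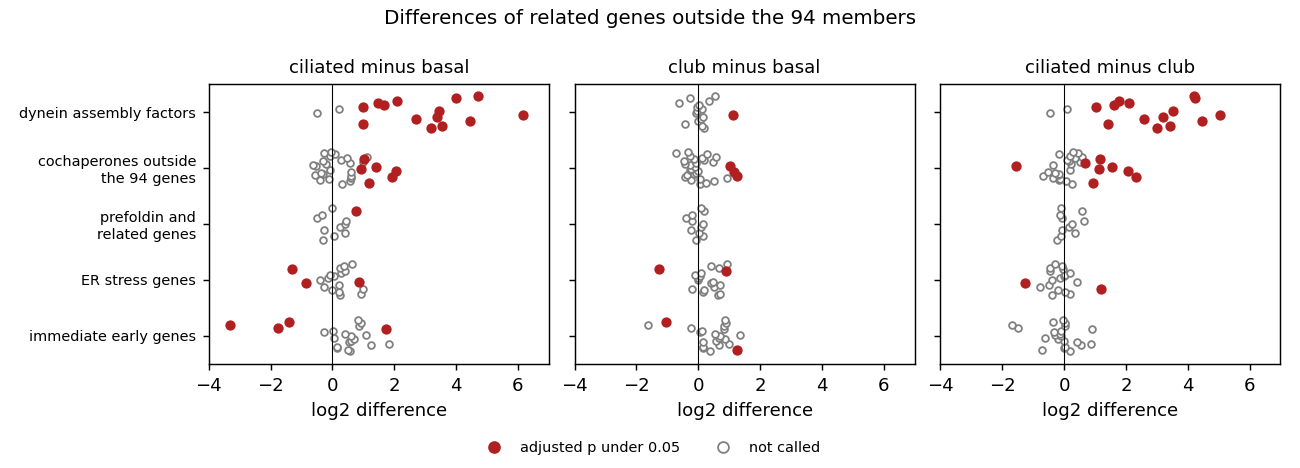
Each point is a measured gene of 5 lists outside the 94 members, placed by its log2 difference (horizontal axis) for ciliated against basal, club against basal and ciliated against club cells; filled points were called at an adjusted p under 0.05. In both ciliated panels 14 of 16 dynein assembly factors are filled and lie to the right of 0, and the other lists scatter on both sides of 0.

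Some markers of other cells moved with the contrasts. Of 8 fibroblast markers, Dcn and Fbln1 were lower in ciliated and in club cells than in basal cells, and of 10 leukocyte markers Laptm5, Tyrobp and Fcer1g. The summed log2 level of the fibroblast list was 52.0 to 52.1 in ciliated, 51.2 to 51.5 in club and 59.6 to 60.0 in basal arrays, and that of the leukocyte list 61.2 to 63.5 in ciliated, 61.5 to 62.8 in club and 66.3 to 68.4 in basal arrays. Ptprc, which defines leukocytes, was at 5.29, 5.18 and 5.49 and the fibroblast collagen gene Col1a2 at 7.08, 6.83 and 7.13 in ciliated, club and basal cells, called in no contrast. Of 6 tuft cell markers, Dclk1 and Trpm5 were lower in ciliated than in club cells by 1.26 ± 0.22 and 1.06 ± 0.21 (adjusted p = 0.0071 and 0.014), and the list summed to 39.3 to 39.7 in ciliated, 42.8 to 46.4 in club and 41.7 to 42.2 in basal arrays. Of 4 ionocyte markers, Ascl3 was higher than in basal cells by 0.98 ± 0.20 in ciliated and 1.11 ± 0.20 in club cells (adjusted p = 0.014 and 0.017), and the list summed to 28.6 to 29.3 in ciliated, 28.7 to 29.0 in club and 26.9 to 27.5 in basal arrays. The part of these cells in the chaperone differences was not tested.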

How the data were processed

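Per the labels' protocols, total RNA of the sorted cells was biotin-labelled after Affymetrix. RMA was run by the authors, per the submitters' processing notes, with no version. Platform and build were not given in the sources used here. Deposited log2 values come per probe set (35556) and, as used here, per gene symbol. In the per-gene table the authors gave each of 20315 genes 1 log2 value per array. In 93 of the 94 members all 6 values were those of 1 probe set, within 1e-06. A table of 50 basal genes, which holds 0 members, and 18 columns of another study in it were not used.

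One mean per cell type was fitted to the 6 arrays with limma 3.58.1 (R 4.3.3) and empirical Bayes, without a filter, and p-values were adjusted by Benjamini-Hochberg over all genes. Alternatives were other scalings (quantile, median, cyclic loess), a filter on dim genes, a mean-variance trend, a replicate block, only the types compared, and each array left out. The fit was tested on simulated data. All 94 symbols matched RefSeq. Values per array went to the largest called differences, genes higher in 1 type and classical stress genes. From the other lists only the 4 largest differences of a contrast were named, unless said otherwise. The members and lists were chosen with earlier results of these data known. No detection calls were used. The number of arrays limits the precision.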

Additional observations from a re-analysis of the deposited data

How the results depend on the processing

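Of the 42 called differences of members, 16 held under all 13 alternatives, 26 were lost under at least 1, and 0 changed sign. For each contrast, the 13 repeat 1 fit: leaving out either array of the type not compared equals fitting only the 2 cell types compared. Leaving out an array lost most, up to 19 without ciliated replicate 2, and the cause was not tested beyond there being fewer arrays. The count of members called without 1 array ranged from 11 to 21 in ciliated minus basal, 0 to 12 in club minus basal and 8 to 19 in ciliated minus club, and that of all genes from 1907 to 3807, 783 to 2534 and 1587 to 3978. Members higher in ciliated cells than in both other types numbered 6 to 9, and those so placed in club or in basal cells 0 to 1. In club minus basal, 3 members were called with a mean-variance trend in the prior, and 3 members and 1050 genes when only the 2 cell types were fitted; the cause was not tested. Centring the arrays moved the share of all calls that were higher to 43.9 percent in ciliated minus club, against 51.5 percent as deposited. With a replicate block 21, 9 and 20 members were called in the 3 contrasts and 0 of the 42 calls were lost. Over all genes the block gave 2115 higher and 1989 lower in ciliated minus basal, 1146 and 878 in club minus basal, and 1817 and 1922 in ciliated minus club. It gained Hspb1 and Hsp90aa1 in ciliated minus basal, Hspa13, Hspa1a and Dnajb4 in club minus basal, and Hsf4, Dnajb9 and Hspb6 in ciliated minus club. The labels do not say whether arrays with the same replicate number belong together. Over genes, the replicate differences correlated at 0.26 between ciliated and club and 0.26 between club and basal cells. Between ciliated and basal cells they correlated at 0.052. Whether arrays of the same number share a batch or animals was not tested, and the main fit took them as unpaired. Uncalled stress genes near 0 changed sign. Hspa1a in ciliated minus basal was -0.17 with quantile normalization again, -0.087 with cyclic loess, -0.12 without ciliated replicate 1 and -0.46 without basal replicate 2. Left-one-out values of Hspa1a there ran from -0.46 to 0.98. Those of Hsf1 ran from -0.057 to 0.58 in ciliated minus basal and from -0.53 to 0.044 in club minus basal. Also in club minus basal, Dnajb1 was -0.011 with cyclic loess and Hspb1 -0.00024 with quantile normalization again.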
